A study of Mus musculus with 32 samples.

Results

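Transcripts of the spliceosome, the nuclear machine that removes introns from pre-mRNA, were followed in mouse embryos across the first cleavage. Members were the genes whose symbols belong to the Srsf, Snrp, Snrnp, Sf3a, Sf3b, Prpf, Lsm1 to Lsm8 and U2af series, without pseudogene symbols and without Snrpn. This name rule used no measured value, and it found 64 of the 46078 genes in the tables, under 62 names. Embryos were collected at the late 1-cell stage, 12 hours after fertilization, and at the late 2-cell stage, 28 hours after fertilization. They carried mutations of Dppa2 or Dppa4, which encode a pair of related nuclear proteins of early embryos and germ cells. Group names give the maternal allele as m and the zygotic allele as z. By these labels controls are m+z+, the maternal gene is missing in m-z+, and in m-z- it is missing from mother and embryo. Of 16 total RNA libraries, 8 came from a Dppa2 arm (B6/DBA mixed background) and 8 from a Dppa4 arm (B6), with duplicate control and duplicate m-z+ libraries at either stage. Another 16 libraries held polyA RNA of a single embryo each, per the descriptions: WT embryos (B6) gave 2 at the 1-cell and 2 at the 2-cell stage, and the 4 mutant groups, m-z+ or m-z- in either arm, gave 3 apiece at the 2-cell stage. Strain and arm cannot be told apart, and the labels do not say which promoter, Cre or deletion made the alleles. The question set by the design is how these transcript levels change between the stages and whether the genotypes differ.

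Spliceosomes assemble on each intron from small nuclear ribonucleoproteins (snRNPs), in which a small nuclear RNA is wrapped by a ring of Sm or LSm proteins and carries specific proteins. U1 binds the start of the intron, U2 with its SF3A and SF3B subunits binds the branch point, and U2AF reads the end of the intron. The tri-snRNP of U4, U6 and U5 then joins and is remodelled into the active enzyme. U11 and U12 take the place of U1 and U2 on a rare class of introns, and SR proteins (Srsf) bind exons and recruit the snRNPs. In the mouse the oocyte stores RNA for the first division, much of it is cleared by the 2-cell stage, and the embryo's own genome becomes active over the same period.

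Libraries differed in level and quality in ways that bear on the members. FPKM (fragments per kilobase of transcript, scaled to the size of the library) summed to 412115 to 629583 in the total RNA and 539978 to 675241 in the polyA libraries, and the sequencing depth is unknown. In these whole embryos an FPKM is a share of the RNA sequenced. A change in a gene's own RNA and a change in the rest of the embryo's RNA cannot be told apart. The stage labels matched their markers: the summed FPKM of 7 maternal transcripts was 1846 to 2589 in 1-cell and 467.4 to 1195 in 2-cell total RNA libraries, and that of 6 genes typical of the 2-cell stage was 2.99 to 13.8 and 211.4 to 301. Cumulus and granulosa markers summed to at most 43.4 FPKM in any library. Of these Tnfaip6 reached 43.4 FPKM in polyA and 4.06 in total RNA. Cyp19a1 reached 17.9 and 8.52, and was above 0 in every total RNA library. Inha was at 0 in all 32 libraries, and each of the other markers reached at most 0.94. One library labelled Dppa2 m-z-, replicate 3, held 1532 FPKM of blood markers, the other 15 polyA libraries at most 100.6. Dppa4 RNA was listed at 0, 0 and 0.149 FPKM in the Dppa4 m-z- libraries against 124.8 to 155 in Dppa4 m-z+. Dppa2 RNA was still present in the libraries labelled Dppa2 m-z-, at 154.9, 130.2 and 76.5 FPKM against 92.4, 87.3 and 63.2 in Dppa2 m-z+, so every direction for that group rests on its label. In total RNA, 1-cell Dppa2 m-z+ embryos held Dppa2 at 9.38 and 9.52 FPKM against 32.3 and 32.7 in controls. At the 2-cell stage the values were 44.8 and 59.2 against 49.7 and 53.0. Dppa4 in Dppa4 m-z+ embryos was at 1.13 and a listed 0 against 4.37 and 6.92 FPKM at the 1-cell stage. Its 2-cell values were 25.5 and 20.3 against 30.1 and 17.6 FPKM.

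Most members were expressed. With a filter that kept genes reaching 1 FPKM in 2 or more libraries, 61 of 64 were tested in total RNA and 60 in polyA RNA. Srsf12, an SR protein gene, reached at most 0.229 FPKM in total and 1.19 in polyA RNA, and Prpf40b passed in total RNA but reached at most 0.355 in polyA RNA. Second entries under the names Srsf1 (ENSMUSG00000098301) and Snrnp40 (ENSMUSG00000106911) were listed at 0 in all 32 libraries. Members tested had a median level of 22.3 FPKM in total RNA, against 5.58 for all 15068 genes tested, and 40.3 against 3.89 for 18506 genes in polyA RNA. The highest in total RNA were Snrnp27, a tri-snRNP protein gene, at a mean of 142.2 FPKM over 16 libraries, and the Sm genes Snrpf (93.1) and Snrpe (84.6). In polyA RNA the Sm genes led, with Snrpg at 2119, Snrpe at 1007 and Snrpd1 at 383.6 FPKM. Sm, LSm and SR genes are known to have many processed copies in the genome, and how reads shared with such copies were assigned is not given in the sources used here, so their levels are uncertain.

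The summed level of the members was lower at the 2-cell stage in total RNA and not in polyA RNA. In total RNA they made up 0.524% and 0.561% of all FPKM in the 1-cell and 0.331% and 0.285% in the 2-cell controls of the Dppa2 arm. Over all total RNA libraries the 8 at the 1-cell stage held 0.512% to 0.561% and the 8 at the 2-cell stage 0.237% to 0.346%, with no overlap. In polyA RNA the WT libraries held 1.09% and 1.23% at the 1-cell and 1.33% and 1.33% at the 2-cell stage. The other 12 polyA libraries, all 2-cell, ranged from 1.04% to 1.43% and thus spanned the values of both WT stages. Abundant genes weigh most in these sums, which were not tested.

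**Figure D1:**
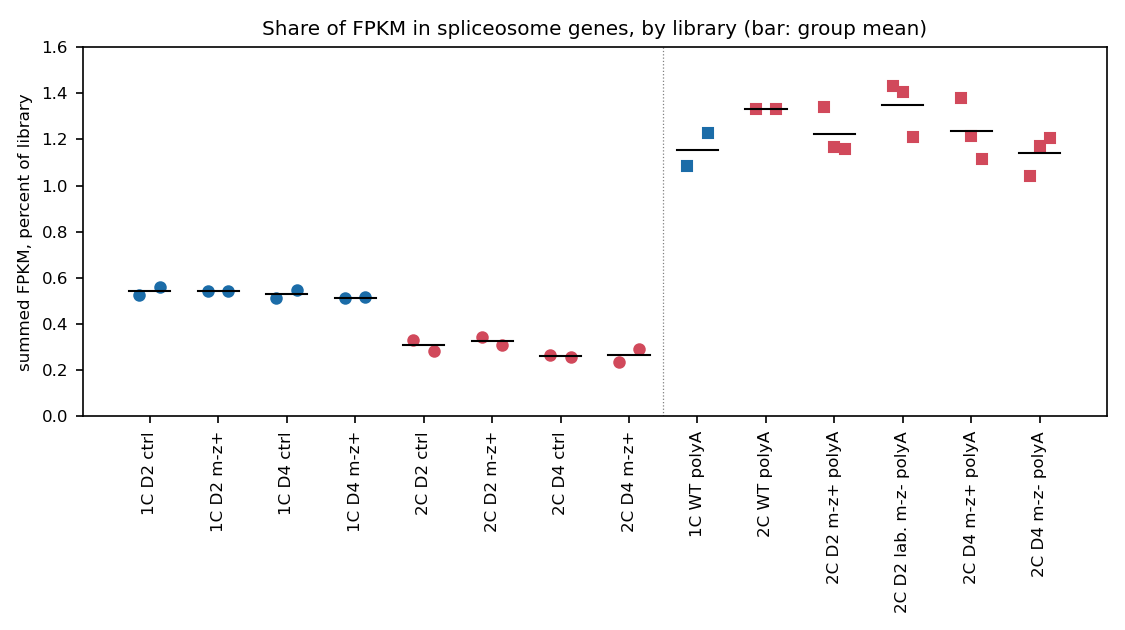
Summed FPKM of the 64 spliceosome entries as a percentage of all FPKM, one point per library (circles total RNA, squares polyA RNA; blue 1-cell, red 2-cell; bars group means; ctrl, m+z+; D2 and D4, Dppa2 and Dppa4 arms; lab., labelled). The 8 total RNA 1-cell libraries lie between 0.512% and 0.561%, above all 8 2-cell libraries.

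Change between the stages was tested in limma on log2(FPKM + 1), with p-values adjusted over all genes of a table and a threshold of 0.05; the labels do not say that replicates are separate collections, so a p measures the spread between these libraries only. Spliceosome genes did not move as one, and like all genes tested they included a rising and a falling set. In Dppa2-arm controls 23 of 61 rose and 24 fell (median log2 change -0.02), where 31.7% of all genes rose and 29.9% fell (median 0.06). In Dppa4-arm controls 16 rose and 24 fell (median -0.35), with backgrounds of 24.9% and 24.2% (median 0.04). Dppa2 m-z+ embryos gave 18 and 23 (median -0.19; backgrounds 28.8% and 28.4%) and Dppa4 m-z+ embryos 16 and 23 (median -0.35; backgrounds 25.3% and 25%). The share that fell was thus 37.7% to 39.3%, above the background in each group, and the share that rose, 26.2% to 37.7%, lay closer to it. The background was not matched for level (median 5.58 FPKM, against 22.3 for members), and the part of level in these shares was not tested. Leaving out 1 library moved the member median to 0.03 in Dppa2-arm controls (without 2-cell replicate 2), -0.20 in Dppa4-arm controls (without 2-cell replicate 2), -0.40 in Dppa2 m-z+ (without 2-cell replicate 2) and -0.17 in Dppa4 m-z+ embryos (without 2-cell replicate 1). Rescaling each library to a fixed total lowered the median of all genes to -0.30 in Dppa2-arm controls. There 16 members (26.2%) then rose and 28 (45.9%) fell, against 24.9% and 38.5% of all genes. In Dppa4 m-z+ embryos it gave 13 (21.3%) and 29 (47.5%), against 20.9% and 33.3% of all genes.

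The direction differed between the complexes. Over the 4 total RNA stage changes 21 of 61 members (34.4%) fell in all 4, where 17.9% of all genes did, and 15 (24.6%) rose in all 4, where 18.6% did. Another 13 passed in 1 to 3 of them and 12 in none, and no member passed in both directions. Of the 21, 8 encode U2 or U2AF proteins and 6 U5 or tri-snRNP proteins, with 3 LSm, 2 Sm and 1 each of U1 and the other Prpf factors. Of the 15, 4 encode SR proteins, 3 Sm proteins and 2 each U1 and U11/U12 proteins, with 1 each of the LSm, U2, tri-snRNP and other Prpf groups. The 4 comparisons are of separate libraries, except that all share 1 fitted spread per gene. In the annotation (GENCODE M21, mm10) the longest transcripts of the 21 had a median of 10 exons and 2183 nucleotides, and those of the 15 a median of 6 exons and 1365 nucleotides.

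**Figure D2:**
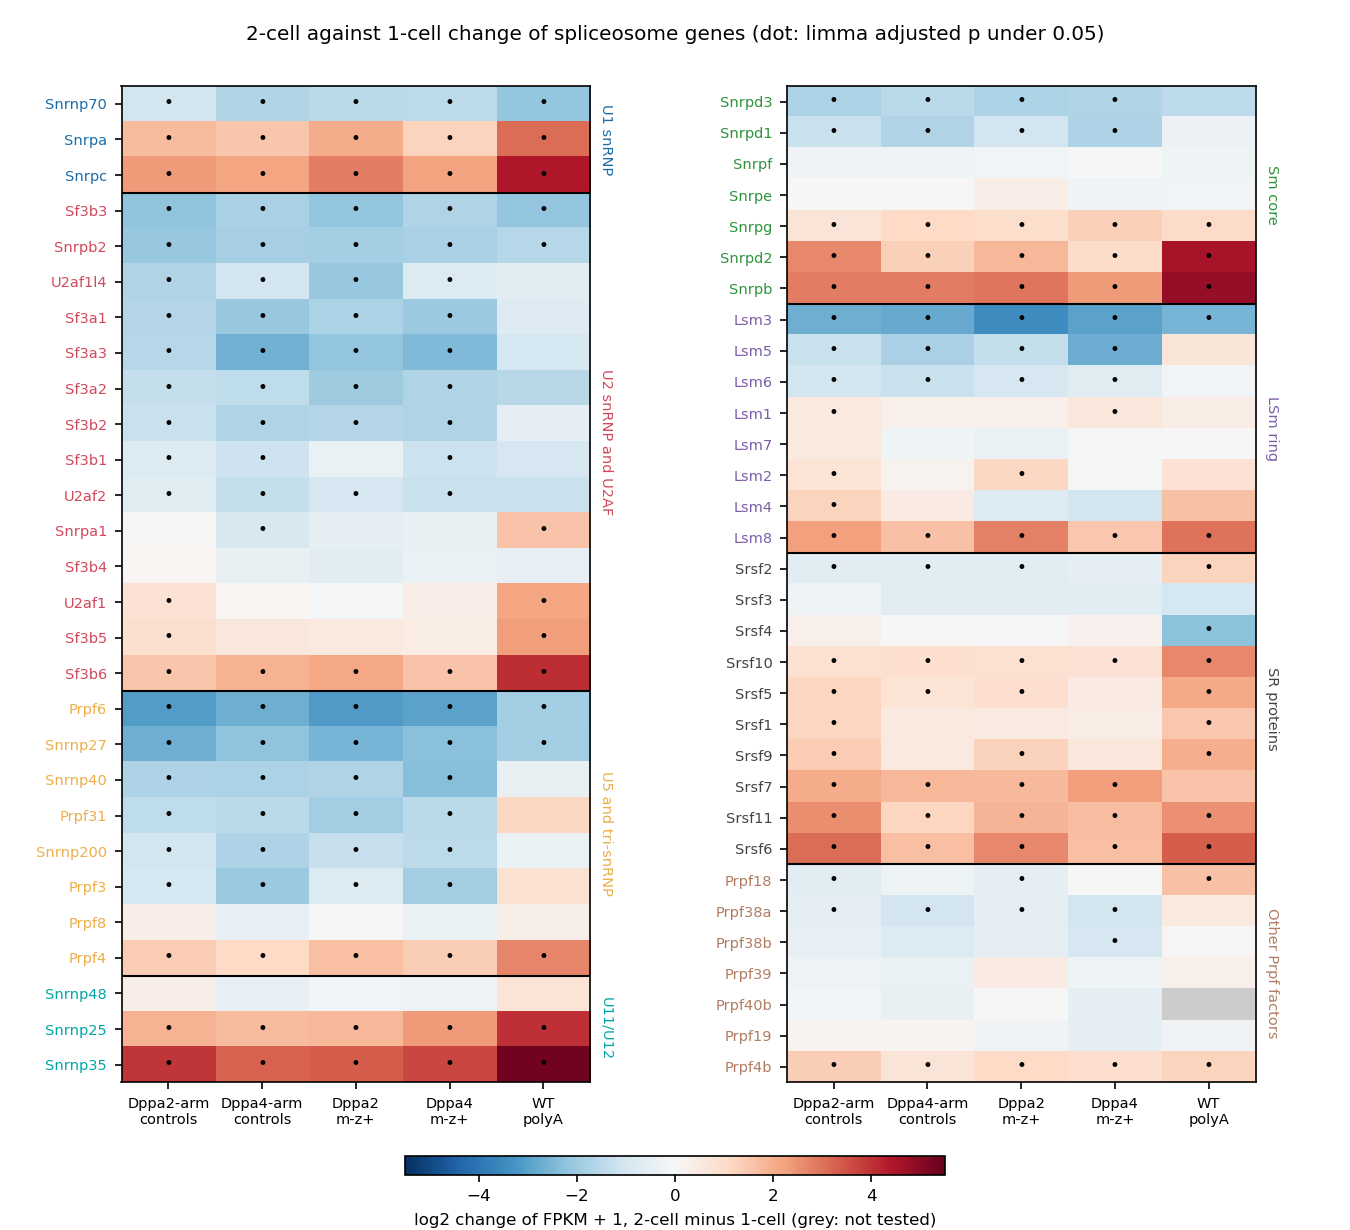
Stage change, 2-cell minus 1-cell, of log2(FPKM + 1) (colour, red higher in 2-cell and blue lower) for 60 of the 61 tested members, in rows grouped by complex, and the 5 stage changes in columns; dots mark a limma adjusted p under 0.05. U2 and tri-snRNP genes are mostly blue in the 4 total RNA columns (8 and 6 members fell in all 4), and more SR genes are red than blue.

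As examples of the regions just upstream of these genes, the 250 bases before the RefSeq start (GRCm38.p6, the same assembly as mm10) are printed for a pair of genes that fell in all 4 comparisons and a pair that rose in all 4. The Lsm3 region lies at chr6:91515785-91516034 (forward strand), that of Snrnp27 at chr6:86684492-86684741 (reverse), of Snrnp35 at chr5:124482905-124483154 (forward) and of Srsf6 at chr2:162931258-162931507 (forward). RefSeq and GENCODE starts differ, so the Lsm3, Snrnp27 and Snrnp35 regions reach into the gene as GENCODE places it. Sequences run 5′ to 3′ on the gene's strand, and capitals mark matches to the motifs named after them.
Lsm3: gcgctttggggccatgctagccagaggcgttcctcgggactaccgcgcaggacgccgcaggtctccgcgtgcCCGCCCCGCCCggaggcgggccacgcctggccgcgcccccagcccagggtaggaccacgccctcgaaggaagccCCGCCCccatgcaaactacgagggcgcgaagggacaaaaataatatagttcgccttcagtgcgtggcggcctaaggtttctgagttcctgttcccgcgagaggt
Snrnp27: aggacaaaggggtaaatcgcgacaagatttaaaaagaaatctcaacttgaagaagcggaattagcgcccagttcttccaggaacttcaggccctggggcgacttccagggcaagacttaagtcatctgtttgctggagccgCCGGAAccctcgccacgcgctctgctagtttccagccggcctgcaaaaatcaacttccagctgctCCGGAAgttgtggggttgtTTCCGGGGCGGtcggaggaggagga
Snrnp35: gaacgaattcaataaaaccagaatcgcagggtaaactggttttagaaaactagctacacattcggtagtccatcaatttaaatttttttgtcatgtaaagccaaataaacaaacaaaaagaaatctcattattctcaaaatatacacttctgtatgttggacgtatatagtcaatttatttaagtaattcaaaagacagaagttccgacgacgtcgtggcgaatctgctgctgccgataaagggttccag
Srsf6: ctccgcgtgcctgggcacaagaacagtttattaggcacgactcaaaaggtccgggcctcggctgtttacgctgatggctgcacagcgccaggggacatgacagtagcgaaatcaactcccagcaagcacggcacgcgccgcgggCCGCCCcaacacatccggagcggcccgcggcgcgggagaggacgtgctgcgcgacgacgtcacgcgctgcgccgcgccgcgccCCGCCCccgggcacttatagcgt
On both strands, 6 letter strings were searched in windows of 300 bases (250 before and 50 after the start), which RefSeq gave for 52 of the 62 names, some with several starts: the ETS core CCGGAA, the SP1/KLF box GGGCGG, the NRF1 core GCGCATGCG, the YY1 core ATGGCGG, the NFY box CCAAT and TATAAA. Matches may overlap, as the ETS core and SP1/KLF box do in Snrnp27. Counting a gene with a match in any of its windows, the ETS core was in 51.9% of members and 16.7% of all 27025 genes, the SP1/KLF box in 73.1% and 38.2%, the YY1 core in 19.2% and 4.69%, and the NRF1 core in 9.62% and 1.95%. The NFY box (38.5% and 41.1%) and TATAAA (9.62% and 15.7%) were below the level of all genes, which include every gene type. The ETS core was in 14 of the 18 genes with a window that fell in all 4 comparisons and in 7 of the 14 that rose in all 4. The SP1/KLF box was in 12 of 18 and 11 of 14. A match is a string of letters and not a shown binding site.

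U1 snRNP genes divided by subunit. Snrpc, the gene of the C protein of U1 that steadies U1 on the start of the intron, measured 26 and 32 FPKM in 1-cell and 148 and 149 in 2-cell controls of the Dppa2 arm, and 24.8 and 24.7 against 139 and 95.8 in those of the Dppa4 arm. It rose in each (log2 2.32, SE 0.18, limma adjusted p = 5.1e-07, and 2.17, adjusted p = 1.45e-06), and in WT polyA RNA from 10.1 and 35.3 to 396 and 454 FPKM (4.40, SE 0.45, adjusted p = 1.17e-06). Snrpa, the gene of the A protein of U1, rose by 1.22 to 2.04 over the 4 total RNA comparisons and by 3.06 in polyA RNA. Its rise in Dppa4 m-z+ embryos did not pass without 1-cell or 2-cell replicate 2 (1.07 and 0.89). Snrnp70, the gene of U1-70K, ran the other way: it measured 106 and 105 FPKM in 1-cell and 49.7 and 53.4 in 2-cell Dppa2-arm controls, and 56.4 and 53.4 against 15.5 and 8.64 in WT polyA RNA. It fell in all 5 comparisons, by log2 changes of -1.03 to -2.15. Thus 2 of 3 U1 genes rose and 1 fell in every stage change tested, where 18.6% of all genes rose and 17.9% fell in all 4 total RNA comparisons.

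Most U2 snRNP and U2AF genes fell in total RNA. Of 14 tested, 9 fell and 3 rose in Dppa2-arm controls, 10 and 1 in Dppa4-arm controls, 8 and 1 in Dppa2 m-z+ and 9 and 1 in Dppa4 m-z+ embryos, with group medians of -0.99 to -1.26. The falling share was 57.1% to 71.4%, against 24.2% to 29.9% of all genes, and the rising share 7.14% to 21.4%, against 24.9% to 31.7%. Sf3b3, a scaffold subunit of SF3B, measured 48.4 and 47 FPKM in 1-cell and 8.61 and 10.4 in 2-cell Dppa2-arm controls (log2 -2.22, SE 0.18, limma adjusted p = 6.89e-07), and 49.4 and 49.5 against 11.6 and 16.1 in Dppa4-arm controls. Snrpb2, encoding the U2B protein on U2 RNA, measured 87.5 and 84.4 against 20.3 and 19 FPKM in Dppa2-arm controls (log2 -2.08, SE 0.18, adjusted p = 1.13e-06). The 3 SF3A genes fell in all 4 comparisons, and Sf3a3 went from 77.5 and 72.1 to 11.6 and 10.4 FPKM in Dppa4-arm controls (log2 -2.66) but from 66.1 and 75.4 to 23.9 and 22.5 in Dppa2-arm controls (-1.56). Sf3a1 fell by log2 changes of -1.62 to -2.07.

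A single U2 gene rose throughout. Sf3b6 encodes the small SF3B subunit that sits at the branch point. It measured 6.52 and 8.04 FPKM in 1-cell and 19.8 and 25.7 in 2-cell Dppa2-arm controls (log2 1.51, SE 0.29, limma adjusted p = 0.000573), and 18.6 and 16.7 against 262 and 369 in WT polyA RNA (4.07, SE 0.49, adjusted p = 7.36e-06). Sf3b5, another small subunit, rose in Dppa2-arm controls (0.90, a call lost without 1-cell replicate 1, 1-cell replicate 2 or 2-cell replicate 1, at 0.88, 0.92 and 0.42, or with each library rescaled to a fixed total, at 0.63) and in polyA RNA, from 8.71 and 8.93 to 51 and 44.7 FPKM (2.31). In WT polyA RNA the U2 group as a whole gave 4 rising (28.6%) and 2 falling (14.3%) of 14, against 17.4% and 8.42% of all genes. The 2 that fell were Sf3b3 (16.6 and 17.4 to 4.45 and 1.91 FPKM) and Snrpb2 (370.3 and 393 to 133 and 125 FPKM). The Sf3b3 call was lost without WT 1-cell replicate 1, WT 1-cell replicate 2 or WT 2-cell replicate 2 (-2.21, -2.14 and -1.72), and the Snrpb2 call without WT 1-cell replicate 2 (-1.52).

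U5 and tri-snRNP genes fell in 6 of 8 cases (75%) in each of the 4 total RNA comparisons, and 1 (12.5%) rose in each. Among all genes 24.2% to 29.9% fell and 24.9% to 31.7% rose. Prpf6 (chr2:181591868-181655660, mm10, forward strand, ENSMUSG00000002455) encodes the protein that bridges U5 with U4 and U6, and overlaps Samd10 and Zfp512b on the other strand. It measured 101 and 107 FPKM in 1-cell Dppa2-arm controls, 105 and 108 in Dppa2 m-z+, 75.4 and 80.3 in Dppa4-arm controls and 73.1 and 76.8 in Dppa4 m-z+ embryos. At the 2-cell stage the same groups held 12.1 and 10.8, 9.8 and 13.4, 8.77 and 14.6, and 7.54 and 10.7 FPKM. All 8 1-cell libraries lay above all 8 2-cell libraries, and the Dppa2-arm 1-cell libraries above those of the Dppa4 arm. The log2 changes were -3.08 (SE 0.23, limma adjusted p = 2.7e-07), -3.11, -2.67 and -2.92, and in Dppa2-arm controls the ratio of the mean FPKM was 0.11. In WT polyA RNA Prpf6 measured 36.3 and 41.2 against 13.3 and 7.16 FPKM (-1.88, SE 0.6, adjusted p = 0.0274). That polyA call was lost without WT 1-cell replicate 1, WT 1-cell replicate 2 or WT 2-cell replicate 2 (-1.97, -1.79 and -1.48).

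Snrnp27 (chr6:86675151-86684522, reverse strand) was the most abundant member in 1-cell total RNA, at 252 and 259 FPKM in Dppa2-arm controls, 304 and 261 in Dppa2 m-z+, 199 and 246 in Dppa4-arm controls and 199 and 203 in Dppa4 m-z+ embryos. The 2-cell libraries held 27.9 and 52.5, 41.5 and 52.3, 34.8 and 62.1, and 36.5 and 44.9 FPKM in the same order, all below every 1-cell value. Its log2 changes were -2.23 to -2.71, and -1.91 (SE 0.30, limma adjusted p = 0.000155) in WT polyA RNA. Snrnp40, encoding a U5 protein, fell by -1.65 to -2.32. Also falling in all 4 were Snrnp200, the gene of the helicase that unwinds U4 from U6, and Prpf3 and Prpf31 of U4/U6. None of these 4 passed in polyA RNA, where Prpf31 measured 9.32 and 9.23 against 25.4 and 18.4 FPKM. Prpf3 did not pass in Dppa2 m-z+ embryos without 1-cell replicate 1, 1-cell replicate 2 or 2-cell replicate 2 (-0.76, -0.72 and -0.55), nor with median-ratio scaling (-0.62). Prpf4, a further U4/U6 protein gene, was the one that rose, from 2.47 and 1.57 to 8.89 and 5.36 FPKM in Dppa2-arm controls (1.41, SE 0.31, adjusted p = 0.00167). In Dppa4-arm controls its call was lost without 1-cell replicate 2 or 2-cell replicate 1 (0.96 and 0.81). Prpf8, the scaffold of the active site, passed in none of the 5.

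**Figure D3:**
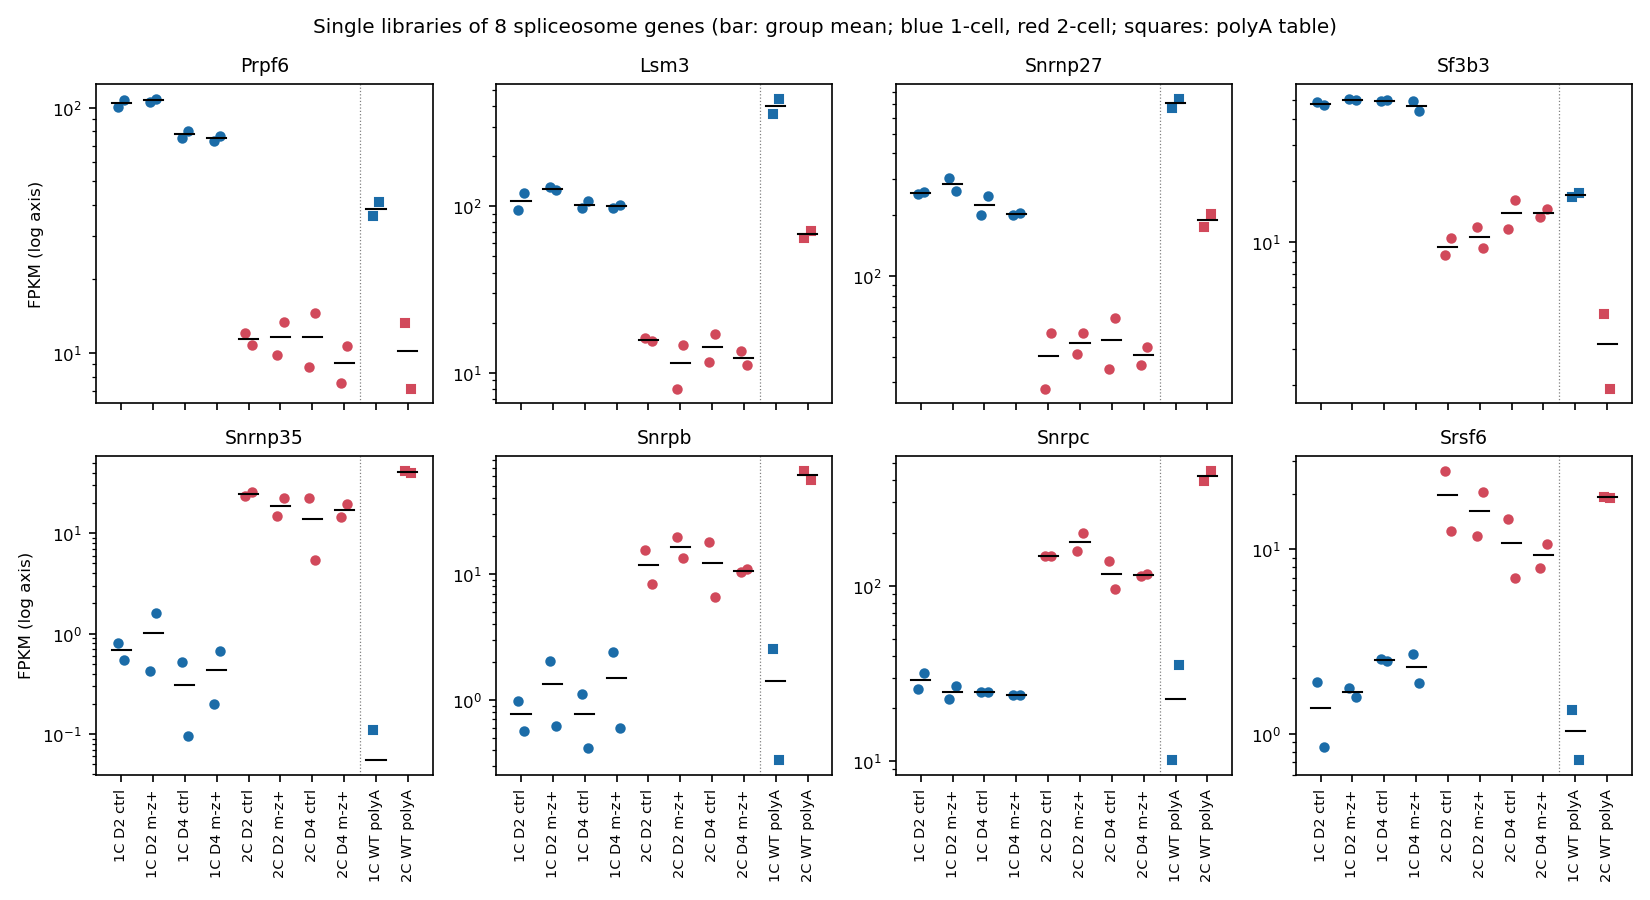
FPKM (log axis) of 8 spliceosome genes in single libraries, one point per library, with bars at group means (ctrl, m+z+; D2 and D4, Dppa2 and Dppa4 arms; squares and the part right of the dotted line, polyA RNA). The upper 4 genes are lower and the lower 4 higher in every 2-cell library (red) than in any 1-cell library (blue) of the same table. One WT 1-cell polyA value of Snrnp35 is listed at 0 and is not drawn.

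Genes of the Sm ring, the 7 proteins shared by U1, U2, U4 and U5, divided into 3 that rose, 2 that fell and 2 that did not pass in each of the 4 total RNA comparisons. Snrpb, encoding SmB, measured 0.982 and 0.569 FPKM in 1-cell and 15.5 and 8.27 in 2-cell Dppa2-arm controls (log2 2.81, SE 0.49, limma adjusted p = 0.000299). In WT polyA RNA it went from 2.52 and 0.331 to 66.4 and 55.4 FPKM (4.83, SE 0.48, adjusted p = 8.19e-07). Snrpd2 rose from 3.02 and 5.26 to 35.5 and 25.6 FPKM in Dppa2-arm controls (2.63) and from 5.02 and 5.38 to 17.5 and 11.4 in Dppa4-arm controls (1.29), and its rise in Dppa4 m-z+ embryos did not pass with each library rescaled to a fixed total (0.72). Snrpg, already abundant, rose by log2 0.73 to 1.29 in total RNA and from 998 and 1271 to 2434 and 2271 FPKM in polyA RNA, a call lost without WT 1-cell or 2-cell replicate 1 (0.89 and 1.01) or with median-ratio scaling (0.66). Its rise in Dppa2-arm controls did not pass with each library rescaled to a fixed total (0.28). Snrpd1 fell by -1.06 to -1.71 in total RNA and Snrpd3 by -1.50 to -1.74, and neither passed in polyA RNA (-0.34 and -1.43). Snrpe and Snrpf passed in none of the 5 comparisons, Snrpe holding 93.7 and 89.8 against 91.8 and 88.7 FPKM in Dppa2-arm controls. In Dppa2-arm controls 42.9% of the 7 Sm genes rose and 28.6% fell, against 31.7% and 29.9% of all genes. Transcripts for one ring thus rose, fell or did neither, as those of all genes did, and the split was not tested against theirs.

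The LSm genes, whose rings bind U6 in the nucleus or, with Lsm1, messages due for decay in the cytoplasm, gave 4 rising and 3 falling of 8 in Dppa2-arm controls, 1 and 3 in Dppa4-arm controls, and 2 and 3 in both m-z+ groups. The rising share, 12.5% to 50%, lay on either side of that of all genes, 24.9% to 31.7%. The falling share was 37.5% in each, against 24.2% to 29.9%. Lsm3 (chr6:91515928-91522625, forward strand, ENSMUSG00000034192), a subunit of both rings, measured 95.4 and 120.9 FPKM in 1-cell Dppa2-arm controls, 129.7 and 125.7 in Dppa2 m-z+, 97.5 and 107.1 in Dppa4-arm controls and 97.5 and 102.2 in Dppa4 m-z+ embryos. The 2-cell values were 16.1 and 15.5, 8.02 and 14.8, 11.6 and 17.1, and 13.5 and 11.1 FPKM. Every 2-cell value lay far below every 1-cell value. The Lsm3 gene overlaps AC161456.1 on the same strand. Its log2 changes were -2.69 (SE 0.24, limma adjusted p = 1.38e-06), -3.43, -2.77 and -2.93, and -2.54 (SE 0.38, adjusted p = 7.59e-05) in WT polyA RNA, where it went from 360.2 and 440.5 to 64.8 and 70.7 FPKM. Lsm5 fell by -1.22 to -2.71 and Lsm6 by -0.68 to -1.21 in total RNA. The Lsm6 falls in m-z+ embryos were lost without Dppa2 1-cell replicate 1 (-0.64), and without Dppa4 1-cell replicate 1, 1-cell replicate 2 or 2-cell replicate 2 (-0.61, -0.74 and -0.39) or with median-ratio scaling (-0.59).

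Lsm8, the subunit particular to the U6 ring, was the LSm gene that rose in all 5 comparisons. It measured 0.842 and 2.24 against 17.8 and 6.43 FPKM in Dppa2-arm controls (log2 2.27, SE 0.43, limma adjusted p = 0.000511) and 13.9 and 20.6 against 162 and 124 in WT polyA RNA (3.0, SE 0.46, adjusted p = 0.00011). In Dppa4 m-z+ embryos its call was lost without 1-cell or 2-cell replicate 2 (1.25 and 1.13). Lsm1, the subunit particular to the decay ring, rose in 2 of the 4 total RNA comparisons, by 0.54 in Dppa2-arm controls and 0.64 in Dppa4 m-z+ embryos. The first was lost without 1-cell replicate 1, 1-cell replicate 2 or 2-cell replicate 2 (0.62, 0.46 and 0.49), the second without 1-cell replicate 2 or 2-cell replicate 1 (0.56 and 0.61), and both with each library rescaled to a fixed total (0.15 and 0.38). Lsm2 rose in both Dppa2-arm groups (0.76 and 1.13), the first not without 1-cell replicate 2 (0.65) or with the fixed total (0.34). Lsm4 passed only in Dppa2-arm controls (1.23), at 0.847 and 1.04 against 5.11 and 2.4 FPKM, a call that was lost under 7 of its 10 alternatives, among them leaving out 1-cell replicate 1, 1-cell replicate 2 or 2-cell replicate 1 (1.16, 1.3 and 0.81).

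In each of the 5 stage changes the largest log2 rise among members was that of a U11/U12 gene. This gene, Snrnp35 (chr5:124483134-124491124, forward strand), encoding a protein of the U11 and U12 snRNP, was at 0.811 and 0.552 FPKM in 1-cell Dppa2-arm controls, 0.424 and 1.62 in Dppa2 m-z+, 0.521 and 0.0963 in Dppa4-arm controls and 0.2 and 0.665 in Dppa4 m-z+ embryos. At the 2-cell stage these groups held 23.4 and 25.8, 15 and 22.5, 22.5 and 5.37, and 14.4 and 19.5 FPKM. Every 2-cell library was above every 1-cell library. The log2 changes were 3.93 (SE 0.49, limma adjusted p = 2.15e-05), 3.33, 3.25 and 3.65, and 5.32 (SE 0.5, adjusted p = 4.61e-07) in WT polyA RNA, from 0.109 and a listed 0 to 42.2 and 39.8 FPKM. On this scale the pseudocount of 1 understates the change of genes below 1 FPKM. Snrnp25, of the same particle, rose in all 5, from 7.55 and 13.7 to 151 and 222 FPKM in polyA RNA (4.04, SE 0.52, adjusted p = 1.61e-05), while Snrnp48 passed in none.

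More SR protein genes rose than fell. Of 10 tested, 7 rose and 1 fell in Dppa2-arm controls, 5 and 1 in Dppa4-arm controls, 6 and 1 in Dppa2 m-z+ and 4 and 0 in Dppa4 m-z+ embryos, and 7 and 1 in WT polyA RNA. The rising share was 40% to 70% in total RNA, against 24.9% to 31.7% of all genes, and the falling share at most 10%, against 24.2% to 29.9%. In WT polyA RNA 17.4% of all genes rose and 8.42% fell. Srsf6 measured 1.9 and 0.845 FPKM in 1-cell and 26.6 and 12.5 in 2-cell Dppa2-arm controls (log2 3.06, SE 0.4, limma adjusted p = 3.1e-05), and 1.34 and 0.718 against 19.2 and 19 in WT polyA RNA (3.33). In Dppa4-arm controls it rose by 1.67, and did not pass without the 2-cell replicate 1 (1.19). Srsf11 rose from 8.26 and 9.99 to 51.9 and 64 FPKM in Dppa2-arm controls (2.54) but to 20.4 and 17.4 FPKM, from 8.64 and 6.91, in Dppa4-arm controls (1.18). Srsf7 rose by 1.78 to 2.31 and Srsf10 by 0.78 to 0.93 in total RNA. With each library rescaled to a fixed total, Srsf10 did not pass in Dppa2-arm controls (0.37) or Dppa4 m-z+ embryos (0.43). Srsf4 passed in polyA RNA alone, where it fell (-2.24, SE 0.78, adjusted p = 0.0429) from 10.5 and 7.83 FPKM to a listed 0 and 3.57. It held 41.7 and 41.2 against 45.3 and 55.7 FPKM in total RNA of Dppa2-arm controls, and its polyA call was lost without WT 1-cell replicate 1, WT 1-cell replicate 2 or WT 2-cell replicate 1 (-2.05, -2.43 and -1.14).

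Of the 8 other Prpf factors tested in total RNA, 1 (12.5%) rose in each stage change. In Dppa4-arm controls 1 (12.5%) fell, and in each of the other groups 2 (25%) fell. Of all genes 24.9% to 31.7% rose and 24.2% to 29.9% fell. Prpf4b, the gene of a kinase of the assembling spliceosome, rose in all 5 comparisons, from 14.5 and 14.3 to 47.7 and 30.3 FPKM in Dppa2-arm controls (log2 1.34, SE 0.2, limma adjusted p = 8.61e-05). Its call was lost in Dppa4-arm controls without replicate 1 of the 1-cell or 2-cell stage (0.66 and 0.56), and in polyA RNA, where the change was 1.25, without any 1 of the 4 WT libraries (1.01 to 1.48). With each library rescaled to a fixed total it did not pass in Dppa4-arm controls (0.36) or polyA RNA (1.06), nor in polyA RNA with median-ratio scaling (0.87). Prpf38a, a factor of the spliceosome before activation, fell by -0.53 to -1.07 in total RNA. In Dppa2-arm controls and Dppa2 m-z+ embryos its call did not hold with median-ratio scaling (-0.46 and -0.42), or without any 1 of the 4 control libraries (-0.48 to -0.58) or 1-cell replicate 1, 1-cell replicate 2 or 2-cell replicate 1 of m-z+ (-0.52, -0.56 and -0.39). Prpf38b fell in Dppa4 m-z+ embryos alone (-0.90; lost without 1-cell replicate 1 or 2-cell replicate 2, at -0.55 and -0.67), which does not show a difference from the other groups. Prpf19, Prpf39 and Prpf40b were among those that passed in no stage change tested.

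PolyA and total RNA were then set side by side for the stage change, as WT polyA against Dppa2-arm control total RNA. They differ in strain, kit and embryos, so a difference between them cannot be assigned to polyadenylation. In WT polyA RNA 22 of 60 members rose and 7 fell (median log2 0.47), where 17.4% of all 18506 genes rose and 8.42% fell (median 0.23). With each library rescaled to a fixed total, 19 (31.7%) rose and 10 (16.7%) fell, against 16.4% and 9.89% of all genes. With median-ratio scaling 17 (28.3%) rose and 11 (18.3%) fell, against 15.2% and 12.7%. Of the 60, 19 rose and 6 fell in both kinds of RNA, 16 fell in total RNA without passing in polyA RNA, and 11 passed in neither. These classes were not counted over all genes, which also passed less often in polyA than in total RNA. The counts thus do not set the members apart. The polyA change lay above the total RNA change for 44 of 60 members (73.3%, median difference 0.60), against 58.5% of the 13916 genes in both fits (0.22). With Dppa4-arm controls, of the same B6 strain, it did so for 50 of 60 (83.3%, 1.17) against 57% (0.18). Both counts use the same WT libraries. Across genes the changes correlated at r = 0.868 for the members (n = 60) and 0.809 for all genes (n = 13916), as a description, since genes share their libraries.

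A pair of members passed in opposite directions in Dppa2-arm control total RNA and WT polyA RNA. How many of all genes did so was not counted. Prpf18, a factor of the second splicing step, fell in total RNA of Dppa2-arm controls, from 42.6 and 37 to 26.7 and 25.7 FPKM (log2 -0.58, SE 0.15, limma adjusted p = 0.00457), and rose in WT polyA RNA from 13.1 and 9.64 to 29.7 and 44.2 FPKM (1.6, SE 0.44, adjusted p = 0.0126). Srsf2, an SR protein that binds exonic enhancers, went from 54.7 and 60.9 to 48.2 and 28.8 FPKM (-0.62, SE 0.22, adjusted p = 0.0295) in the same controls and from 54.9 and 52.5 to 114 and 139 FPKM in WT polyA RNA (1.21, SE 0.4, adjusted p = 0.0315). Srsf2 overlaps Mettl23 and Mfsd11 on the opposite strand, and the polyA libraries do not mark strand. The Prpf18 fall was lost without 1-cell control replicate 1 (-0.48), and its polyA rise without WT 1-cell or 2-cell replicate 2 (1.40 and 1.32). The Srsf2 fall was lost without 1-cell control replicate 1, 1-cell control replicate 2 or 2-cell control replicate 2 (-0.69, -0.54 and -0.26), and its polyA rise without any 1 of the 4 WT libraries (1.07 to 1.35) or with either other scaling (0.99 and 0.81). The sign was unchanged in all 10 alternatives for each of these 4 values. In total RNA of Dppa4-arm controls Prpf18 did not pass (-0.26), while Srsf2 fell (-0.59, limma adjusted p = 0.0444), a call lost without 1-cell replicate 1, 1-cell replicate 2 or 2-cell replicate 1 (-0.58, -0.60 and -0.40). Against these controls Snrpa1, which encodes a protein bound to U2 RNA and overlaps Gm45213 on the same strand, also ran in opposite directions. It fell in total RNA from 30 and 25.5 to 23.3 and 9.06 FPKM (-0.88, SE 0.33, limma adjusted p = 0.0416) and rose in WT polyA RNA from 42.8 and 100.2 to 197 and 199 FPKM (1.58, SE 0.5, adjusted p = 0.027). The fall was lost without 1-cell replicate 1, 1-cell replicate 2 or 2-cell replicate 2 (-0.76, -0.99 and -0.24), and the rise without WT 1-cell replicate 1 or either WT 2-cell replicate (0.98, 1.59 and 1.57).

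**Figure D4:**
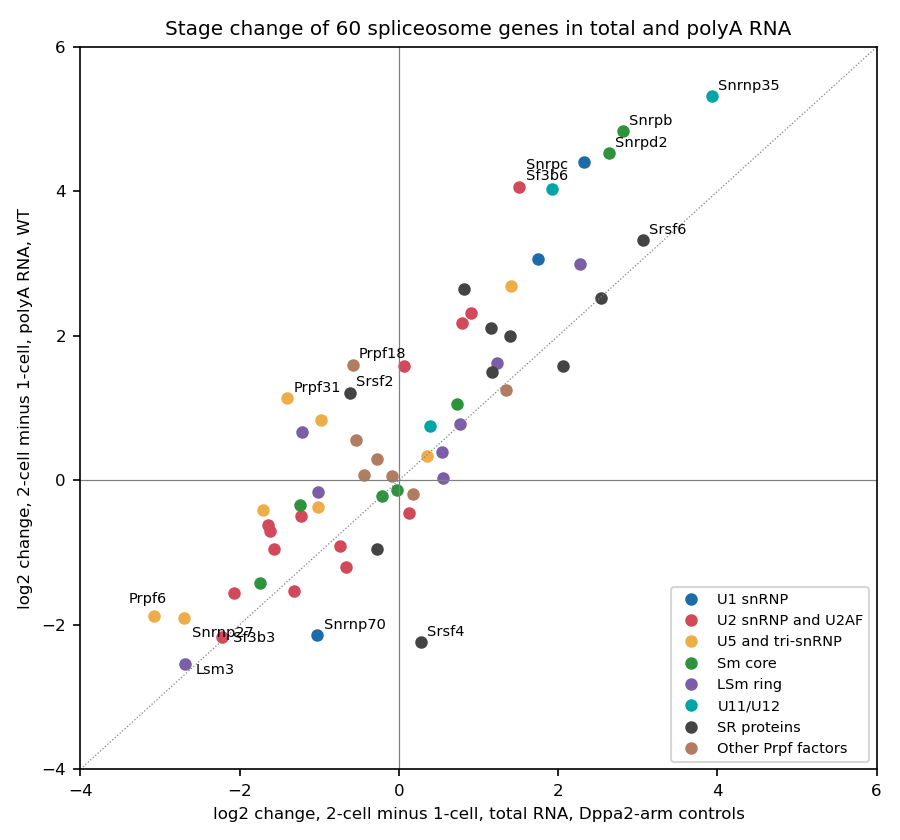
Stage change in log2(FPKM + 1) for total RNA of Dppa2-arm controls (horizontal) and in polyA RNA of WT embryos (vertical), one point per member, coloured by complex, with the line of equal change dotted. Of 60 points 44 lie above that line, and Prpf18 and Srsf2 are at the upper left.

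Spliceosome genes outside the name rule were counted from a list of 87 genes, of which 86 were tested. In Dppa2-arm controls 33 rose and 33 fell (38.4% each, against 31.7% and 29.9% of all genes). In Dppa4-arm controls 22 (25.6%) rose and 36 (41.9%) fell, against 24.9% and 24.2%. The counts were 25 (29.1%) and 41 (47.7%) in Dppa2 m-z+, against 28.8% and 28.4%, and 25 (29.1%) and 34 (39.5%) in Dppa4 m-z+ embryos, against 25.3% and 25%. In WT polyA RNA 31 (36%) rose and 10 (11.6%) fell, against 17.4% and 8.42%. Genes of the SMN complex and snRNP assembly, which load Sm rings on the small nuclear RNAs, rose in 8 of 13 cases and fell in 4 in Dppa2-arm controls, and rose in 8 and fell in 2 in WT polyA RNA. Among them Wdr77, a partner of the methylase that modifies Sm proteins, rose from a mean of 0.037 to 13.9 FPKM in Dppa2-arm controls (log2 3.76, SE 0.37, limma adjusted p = 3.09e-06). Gemin5 and Ddx20 rose by 3.32 and 3.27. Gemin7 of the same group ran the other way in these controls. It went from 52.9 and 35.5 to 1.21 and 2.75 FPKM. Genes of the tri-snRNP and B complex outside the name rule fell in 8 of 13 cases and rose in 2 in Dppa2-arm controls, fell in 10 and rose in 1 in Dppa4-arm controls, and fell in 2 and rose in 2 in WT polyA RNA. Sart3, which recycles U4 and U6, went from a mean of 104 to 14.9 FPKM in Dppa2-arm controls (-2.72, SE 0.22, adjusted p = 5.56e-07) and Ik from 197.6 to 41.6 (-2.22). Eftud2, the gene of a U5 GTPase, fell from a mean of 29.9 to 4.65 FPKM (-2.58).

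Genotypes were compared next. In total RNA no member passed between m-z+ embryos and controls in limma at either stage. In the Dppa2 arm 0 of 61 passed at the 1-cell stage (background 0.0398%; 2 members at an unadjusted p under 0.05, 3.05% of all genes) and 0 at the 2-cell stage (0.186%; 5 members, 12.8% of all genes). In the Dppa4 arm 0 passed at the 1-cell stage (0.00664%; 0 members and 1.27% of all genes at an unadjusted p under 0.05) and 0 at the 2-cell stage (0%; 2 members, 2.67%). At the 1-cell stage all member differences lay between -0.57 and 0.61 in the Dppa2 arm and between -0.33 and 0.42 in the Dppa4 arm on the log2 scale. Prpf6 differed by 0.04 (SE 0.23) and 0.01 at the 1-cell and 2-cell stages of the Dppa2 arm and by -0.05 and -0.30 in the Dppa4 arm. Lsm3 differed by 0.25 (SE 0.24), -0.49, -0.03 and -0.19 in that order.

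The members nearest to a difference were these. Lsm4, a subunit of both LSm rings, was listed at 0 and 0.855 FPKM in 2-cell Dppa2 m-z+ embryos and 5.11 and 2.4 in controls (log2 -1.74, SE 0.5, limma adjusted p = 0.162). In the Dppa4 arm it was at 0 and 0.822 against 2.28 and 2.76 FPKM (-1.38, adjusted p = 1). Srsf11 was at 28.4 and 43.7 against 51.9 and 64 FPKM in the Dppa2 arm (-0.69, SE 0.22, adjusted p = 0.202) and Sf3b4 at 4.16 and 6.6 against 10.8 and 9.08 (-0.80, adjusted p = 0.226). Without m-z+ replicate 2, Srsf11 alone passed (-1.0, adjusted p = 0.037), with 1 library left in that group and assumed to vary like the others. In the Dppa4 arm Lsm5 was at 2.39 and 1.69 against 3.87 and 5.53 FPKM at the 2-cell stage (-0.90, adjusted p = 1), and Srsf7 differed by 0.77. At the 1-cell stage the smallest unadjusted p-values belonged to Prpf39 (-0.57), Snrpd2 (0.61) and Snrnp70 (0.38) in the Dppa2 arm and to Prpf19 (0.36), Lsm1 (-0.26) and Snrpg (-0.17) in the Dppa4 arm, each with an adjusted p of 1. Summed maternal transcripts were 755 and 772 FPKM in 2-cell Dppa2 m-z+ libraries and 467.4 and 543.6 in their controls, and their part in these differences was not tested.

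The stage change itself was compared between genotypes and arms. No member's stage change differed between Dppa2 m-z+ embryos and controls (0 of 61, background 0%; 4 at an unadjusted p under 0.05, 8.62% of all genes) or between Dppa4 m-z+ embryos and controls (0, background 0.00664%; 1, 1.79%) in limma. The smallest p-values were those of Lsm4 (-1.97), U2af1 (-0.85) and Prpf39 (0.72) in the first and Lsm5 (-0.93), Lsm4 (-1.46) and Prpf19 (-0.64) in the second. Prpf6 differed by -0.03 and -0.25 and Lsm3 by -0.74 and -0.16. Between the controls of the 2 arms 0 of 61 passed in limma (background 0.139%), and 10 had an unadjusted p under 0.05 (15.3% of all genes). Here 49 of 61 differences (80.3%) were positive, against 51.6% for all genes. Their median was 0.30, against 0.02 for all genes, and with single libraries left out it ran from 0.21 (without Dppa2-arm 2-cell control replicate 1) to 0.51 (without its replicate 2), and was 0.50 without Dppa4-arm 2-cell control replicate 1. Srsf11 led (1.36, SE 0.31, adjusted p = 0.0903), then Sf3a3 (1.10, adjusted p = 0.12) and Snrpd2 (1.34, adjusted p = 0.138), while Prpf6 differed by -0.40 and Lsm3 by 0.08. Without Dppa4-arm 2-cell control replicate 1, 3 members passed: Srsf11 (1.47), Snrpd2 (1.63) and Snrpa1 (1.58), with 1 library left in that group. At the 2-cell stage maternal transcripts summed to 858.9 and 1195 FPKM in Dppa4-arm and 467.4 and 543.6 in Dppa2-arm controls, and 2-cell genes to 211.4 and 230.8 against 281.9 and 253.1. Their part in the difference was not tested, and strain and arm cannot be told apart.

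**Figure D5:**
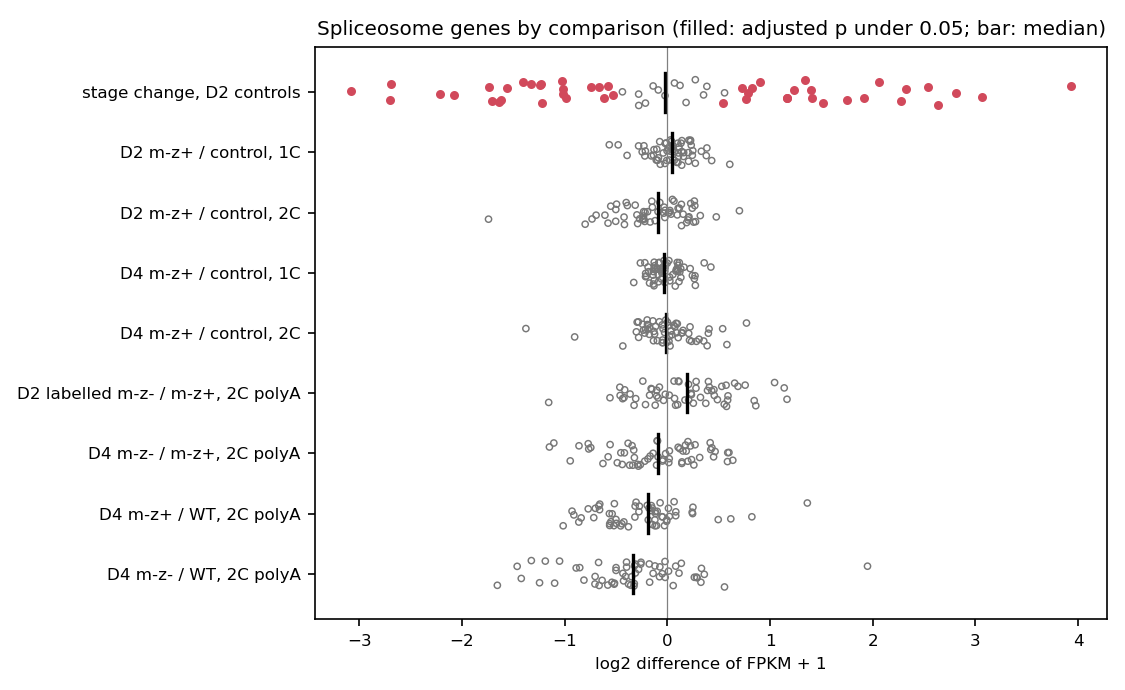
Log2 difference of FPKM + 1 for each tested member (points, spread vertically at random within a row) in the stage change of Dppa2-arm controls and in 8 comparisons of genotypes; filled red points passed at a limma adjusted p under 0.05 and bars are medians. In the genotype rows no point is filled, whereas 47 of 61 are in the stage row.

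In 2-cell polyA RNA 0 of 60 members passed in limma between the libraries labelled Dppa2 m-z- and Dppa2 m-z+ (background 0.0054%; 5 at an unadjusted p under 0.05, 7.65% of all genes). Of the differences 38 (63.3%) were positive, against 43.8% for all genes. Their median was 0.19 against -0.07 for all genes, and it was 0.095 without the library labelled m-z- replicate 2 and 0.3 without that labelled replicate 3, which held the blood markers. Snrnp35 had the smallest p, at 66, 49.9 and 17.6 FPKM against 16.2, 15.1 and 20.4 in m-z+ (log2 1.14, SE 0.41, adjusted p = 0.58), so that 1 of the 3 libraries, the one with the blood markers, lay among the m-z+ values. Snrnp40 (1.17) was at 84.6, 79.5 and 42.1 against 18.1, 48.2 and 27 FPKM, and Snrnp25 (1.04) at 213, 395 and 188 against 147, 143 and 84.8. Prpf6 and Lsm3 differed by 0.11 and -0.04.

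In Dppa4 m-z- against m-z+ embryos 0 of 60 passed in limma (background 0.0162%; 4 at an unadjusted p under 0.05, 7% of all genes). Sf3b6 was at 54.4, 137 and 125 FPKM against 305, 207 and 150 (log2 -1.11, SE 0.4, adjusted p = 0.641). Snrpa was at 14.3, 66.9 and 89.2 against 121, 91.4 and 89.5 (-1.15, adjusted p = 0.694). Srsf5 differed by -0.77, Prpf6 by 0.64 and Lsm3 by 0.60. Against the 2 WT embryos, which both of the next comparisons share, 0 members passed in Dppa4 m-z+ (background 0%; 2 at an unadjusted p under 0.05, 6.65% of all genes) and 0 in Dppa4 m-z- embryos (background 0.0648%; 8, 10.7% of all genes) in limma. The 3 leading in m-z+ were Srsf9 at 18.1, 33.7 and 25.8 against 56.1 and 47.6 FPKM (-1.01, adjusted p = 0.558), Srsf2 (-0.93) and Lsm8 (-0.86). The 3 leading in m-z- were Sf3b6 against 262 and 369 FPKM (-1.66, SE 0.44, adjusted p = 0.236), Snrpd2 at 67.9, 128 and 164 against 312 and 213 (-1.19) and Lsm8 (-1.25). The member median was -0.19 in m-z+ and -0.34 in m-z- (all genes -0.09 and 0), and -0.18 to -0.29 and -0.32 to -0.40 with single libraries left out. Prpf6 differed from WT by -0.66 and -0.02 and Lsm3 by -0.32 and 0.28. Summed maternal transcripts were 3221, 4899 and 5212 FPKM in Dppa4 m-z-, 2676 to 3207 in Dppa4 m-z+ and 3074 and 3478 in WT 2-cell libraries, and their part in these differences was not tested.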

How the data were processed

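The deposited values are FPKM per gene. Per the submitters' processing notes the authors used HISAT2 2.1.0, StringTie 1.3.3b and mm10. Which annotation, filters and strand rule they applied is not given in the sources used here. Per the labels' protocols total RNA libraries are reverse-stranded (SMARTer) and polyA libraries unstranded. Positions come from GENCODE M21, which held 62 of the 64 identifiers.

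From these values log2(FPKM + 1) was computed for genes at 1 FPKM or more in 2 or more libraries of a table. Each table's 16 libraries entered a single fit in limma 3.58.1 (R 4.3.3, statmod 1.5.0; trend and robust options), with 1 mean per group. Tests were two-sided, adjusted by Benjamini-Hochberg over all genes tested, with a threshold of 0.05, and the scripts were tested on simulated data. Standard errors are limma's. One member is counted but not reported by name here.

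Members and lists were chosen with earlier results of these data known. The naming rule took Prpf6 and Lsm3 throughout; per complex and stage change up to 2 passing members in each direction with the largest change; members passing in opposite directions in the 2 kinds of RNA; in genotype comparisons passing members or else the 3 smallest p-values; the 3 highest and all untested members; and up to 3 list genes per direction. Members named beside these complete a group or a pair and were chosen after their values were seen. A listed name with several identifiers (Coil) was counted once, by the identifier with the highest mean. Alternatives were 2 scalings, a pseudocount of 0.1, no filter, only the compared groups in the fit, a replicate block and leaving out each library.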

Additional observations from a re-analysis of the deposited data

How the results depend on the processing

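Counts of passing members were recomputed under each alternative. Leaving out single libraries gave 39 to 44 members for the stage change of Dppa2-arm controls (47 with all), 35 to 40 for Dppa4-arm controls (40), 36 to 41 for Dppa2 m-z+ (41), 35 to 41 for Dppa4 m-z+ (39) and 21 to 23 for WT polyA RNA (29). It gave 0 to 1 for the 2-cell comparison of the Dppa2 arm, with 1 without m-z+ replicate 2, and 0 to 3 for the difference between the arms' controls, with 3 without Dppa4-arm 2-cell control replicate 1. The other 9 genotype counts were 0 under every alternative run. With the replicate block the 5 stage counts were 46, 40, 42, 39 and 31 in the same order, and the block changed no genotype count. Rescaling to a fixed total gave 16 rising and 28 falling in Dppa2-arm controls, 14 and 32 in Dppa4-arm controls and 18 and 27 in Dppa2 m-z+. It gave 13 and 29 in Dppa4 m-z+ and 19 and 10 in WT polyA RNA. Median-ratio scaling gave 17 and 11 in WT polyA RNA. Rescaling also moved the background, whose share is not given for Dppa4-arm controls or Dppa2 m-z+. The counts here show how far calls held, not how members compare with all genes.

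For single members, 251 values were recomputed: every passing stage change, and in the other comparisons Prpf6, Lsm3 and the 3 members with the smallest p. Of 2600 recomputed values 2445 kept their call, 152 kept the direction but no longer passed, and 3 passed newly. Of the calls that passed, 0 reversed. Values that did not pass were followed by their call alone, and differences near 0, as for Prpf6 between Dppa2-arm genotypes at the 2-cell stage, changed sign between alternatives. Scaling to a fixed total ended 15 calls and median-ratio scaling 13, dropping the filter 15, fitting the compared groups alone 13, a pseudocount of 0.1 and the replicate block 2 each. The causes were not tested. Same-numbered libraries did not deviate together (r of deviations from -0.18 to 0.14), so the replicate numbers were not taken to pair them. Depth is unknown for these FPKM, so counting error at low levels, as for Lsm4 and Snrnp35, could not be given.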

Other observations

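One gene of snRNP assembly passed between genotypes. Gemin7, a subunit of the SMN complex, was at 52.9 and 35.5 FPKM in 1-cell and 1.21 and 2.75 in 2-cell Dppa2-arm controls, but at 14 and 11.8 FPKM in 2-cell Dppa2 m-z+ embryos (log2 difference at the 2-cell stage 2.26, SE 0.39, limma adjusted p = 0.0383). In Dppa4-arm controls it was at 39.9 and 25 FPKM at the 1-cell and 24.8 and 22.8 at the 2-cell stage. Its stage change thus differed between the controls of the arms, by -3.55 (SE 0.55, limma adjusted p = 0.0384). It was the only one of 86 tested genes on the list of other spliceosome genes to pass in these comparisons. Of all genes 0.186% passed at the 2-cell stage of the Dppa2 arm and 0.139% in the difference between the arms' controls. Each group held 2 libraries, and the Gemin7 values were not recomputed under the alternatives.

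Cdc5l, a core factor of the Prp19 complex, rose from a mean of 0.838 to 30.6 FPKM in Dppa2-arm controls (log2 4.09, SE 0.56, limma adjusted p = 4.37e-05). In the Dppa4 arm its 1-cell libraries varied widely, with means of 13.9 ± 13.6 FPKM in controls and 57.2 ± 37.6 in m-z+ embryos (SD, n = 2 each), and no stage change passed there (1.0 and -1.01). Zrsr1, a minor spliceosome gene, rose from 0.524 to 18.5 FPKM in Dppa2-arm controls (3.69, SE 0.29, limma adjusted p = 5.08e-07), and Ppil1, a partner of the active spliceosome, from 0.374 to 13.9 (3.44). Magohb, of the exon junction complex that splicing leaves on messages, fell from 41.8 to 4.92 FPKM (-2.98, SE 0.38, adjusted p = 2.52e-05), and Clk1, a kinase of SR proteins, from 126 to 26.3 (-2.22).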
